A study of Homo sapiens with 5 samples.

Results

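The genes described here encode the subunits of oxidative phosphorylation, the last stage of respiration in the inner mitochondrial membrane. They were chosen by symbol, from the genes with a single-symbol probe set. The rule took names that begin with NDUFA, NDUFB, NDUFC, NDUFS or NDUFV and a number, SDHA to SDHD, UQCR, CYC1, COX4 to COX8 or ATP5. The rule uses no measured value, but earlier results of these data were known when it was set. This gave 79 genes with 153 probe sets, of 19775 genes with 41091 such probe sets. Of these, 32 belong to complex I, 3 to complex II, 7 to complex III, 16 to complex IV and 17 to complex V. The other 4 are matched by the names but are no subunits: ATP5IF1, an inhibitor of the ATP synthase, COX7A2L, which joins complexes III and IV, and the pseudogenes ATP5MC2P1 and COX6A1P1.

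The RNA came from C4-2B, a line descended from LNCaP prostate cancer cells that can form bone metastases, and 5 Affymetrix arrays were used. The arrays were for 25 µM BR-DIM (called B-DIM in the labels) for 6 h and for 48 h, 25 µM isoflavone for 6 h and for 72 h, and a control with 0.1% DMSO, whose time in culture the sources used here do not give. BR-DIM is a formulated 3,3′-diindolylmethane from cruciferous vegetables, the isoflavone mixture G2535 consists mainly of genistein and daidzein from soy, and its concentration counts the genistein. There was 1 array per condition, so no difference below has a replicate check or a p-value, and the values describe these 5 arrays alone. The 4 ratios to the control share its array.

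Complex I takes electrons from NADH and complex II takes them from succinate. Both pass them to ubiquinone, complex III passes them on to cytochrome c, and complex IV to oxygen. Complexes I, III and IV pump protons, and complex V, the ATP synthase, uses the proton gradient to make ATP through a rotating ring of c subunits. Most subunits are encoded in the nucleus and a few in mitochondrial DNA, and the array table used here held no probe set with a symbol of the latter.

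Values are the authors' linear MAS5 signals. Signals below 97.1, the median of all signals, were raised to this floor before a log2 ratio was taken, and a gene under the floor on both arrays of a comparison was not measured in it. Of the 79 genes, 71 lay above the floor on all 5 arrays, and COX6A1P1, COX7A1 and COX8C lay under it on all 5. A mean signal of at least 4 times the floor was found for 70 genes, and these are the well-measured genes below. Their mean signals ran between 2078 and 37823 with a median of 12917, and their median rank was at the percentile 98.5 of all genes, so these are among the brightest genes of the arrays.

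The arrays differed in the markers of the cells themselves, in a way that followed neither compound nor time. The labels were kept as given. Whether each array holds the condition on its label was not tested, and every ratio below rests on it. All 10 markers of luminal prostate epithelium with a probe set lay 2-fold or more below the control at 48 h of BR-DIM and at 6 h of isoflavone. Their median log2 ratio over the control was -1.67 at 48 h of BR-DIM and -2.05 at 6 h of isoflavone, but -0.09 at 6 h of BR-DIM and 0.15 at 72 h of isoflavone. The serine protease KLK3, which is prostate-specific antigen, had a signal of 3424 at 6 h and 14.6 at 48 h of BR-DIM, 269.5 at 6 h and 1545 at 72 h of isoflavone, against 5096 on the control. It was thus lowest on those arrays, and on isoflavone 72 h it was also below the control, with a log2 ratio of -1.72. The summed signal of the 10 was 14773 at 6 h and 2862 at 48 h of BR-DIM, 2179 at 6 h and 16247 at 72 h of isoflavone, against 15597 on the control. Markers of other cells were at or near the floor on all 5 arrays apart from COL1A1, COL3A1 and RUNX2, with both basal keratin genes and 3 of 4 leukocyte genes under it throughout. The oxidative phosphorylation genes did not follow this division, since BR-DIM 48 h held their lowest median signal and isoflavone 6 h their highest. The median signal over the 79 genes was 11568 at 6 h and 9153 at 48 h of BR-DIM, 13303 at 6 h and 10164 at 72 h of isoflavone, against 12466 on the control. Their share of the summed signal of all genes was 3.47% at 6 h and 3.05% at 48 h of BR-DIM, 3.77% at 6 h and 3.22% at 72 h of isoflavone, against 3.61% on the control.

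The promoters of 65 of the 79 genes were found in the RefSeq promoter set (build GRCh38.p14, 250 bases before to 50 after each start), in 78 entries. Respiratory genes are known targets of NRF1, GABPA, YY1 and the oestrogen-related receptor alpha (ERR alpha), so the letters of their motifs were searched on both strands. The NRF1 letters GCGCANGCG stood in 22 of the 78 entries (28.2%), against 7.52% of all 35116 entries. The GABPA letters CCGGAAGT stood in 11 entries (14.1%), against 4.14% of all. The YY1 letters AAGATGGCG stood in 9 (11.5%), against 1.75% of all, and the ERR alpha letters TCAAGGTCA in 1 (1.28%), against 0.353% of all. The NRF1 letters can be read on both strands at one site, which was counted as 1 entry.

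The promoters of 4 genes named in the results below are printed. ATP5MC1 and NDUFA11 were the genes at least 1.5-fold lower on the late array of both compounds than on the 6 h array. NDUFA9 had the widest range among the subunits of complex I, and ATP5MC2 encodes the same mature c subunit as ATP5MC1. A link between the motif letters and the signals was not tested. Each line gives the 200 bases before the start of transcription, and capitals mark a match to the NRF1 letters on the opposite strand. They lie on the plus strand at chr17:48892587-48892786 (ATP5MC1) and chr12:4648914-4649113 (NDUFA9), and on the minus strand at chr12:53676084-53676283 (ATP5MC2) and chr19:5903791-5903990 (NDUFA11).
ATP5MC1: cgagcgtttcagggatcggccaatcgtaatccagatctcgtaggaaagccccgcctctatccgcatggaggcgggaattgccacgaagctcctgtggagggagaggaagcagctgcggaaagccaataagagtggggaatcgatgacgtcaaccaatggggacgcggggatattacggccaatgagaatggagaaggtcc
ATP5MC2: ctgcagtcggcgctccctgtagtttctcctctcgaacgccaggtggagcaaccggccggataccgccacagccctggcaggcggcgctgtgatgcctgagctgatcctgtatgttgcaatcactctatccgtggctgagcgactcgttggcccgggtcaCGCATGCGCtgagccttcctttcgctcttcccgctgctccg
NDUFA11: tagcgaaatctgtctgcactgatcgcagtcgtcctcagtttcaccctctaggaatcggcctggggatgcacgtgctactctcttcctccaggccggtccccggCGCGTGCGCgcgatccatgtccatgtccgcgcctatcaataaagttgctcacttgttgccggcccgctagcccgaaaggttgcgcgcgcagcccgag
NDUFA9: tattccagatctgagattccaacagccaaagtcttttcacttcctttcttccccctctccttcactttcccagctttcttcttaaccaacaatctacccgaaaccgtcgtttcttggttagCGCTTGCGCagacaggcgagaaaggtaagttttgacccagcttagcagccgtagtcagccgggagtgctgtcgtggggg
The match began 41 bases before the start in ATP5MC2, 97 bases before it in NDUFA11 and 79 bases before it in NDUFA9. None of the 4 motifs was found in the 300 bases of ATP5MC1. The entry of NDUFA9 also held the YY1 letters after the start, outside the printed stretch. For ATP5MC2 the first of 3 entries is shown.

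The members as a whole were slightly lower on both late arrays and slightly higher on isoflavone 6 h. Their median log2 ratio over the control was -0.03 at 6 h and -0.18 at 48 h of BR-DIM, 0.11 at 6 h and -0.15 at 72 h of isoflavone. The median over all genes measured was 0.07 at 6 h and 0.06 at 48 h of BR-DIM, 0.00 at 6 h and 0.05 at 72 h of isoflavone. Over the 1101 other genes with a mean signal of at least 50 times the floor, a group added after the data were seen, it was -0.03 at 6 h and -0.01 at 48 h of BR-DIM, 0.08 at 6 h and -0.03 at 72 h of isoflavone. The members and these bright genes thus lay close together on both 6 h arrays and apart by more than 0.1 on both late arrays. Of the 70 well-measured genes, 39 had their highest signal on isoflavone 6 h and 0 their lowest. Of the 70, 30 had their lowest at 48 h of BR-DIM and 23 at 72 h of isoflavone. Of the 1101 bright genes, 322 were highest and 94 lowest on isoflavone 6 h. Among these 1101, 240 were lowest at 48 h of BR-DIM and 309 at 72 h of isoflavone. The members' share that was lowest at 72 h of isoflavone was thus near that of the bright genes. With arrays normalized by quantiles, 25 of the 70 were highest and 4 lowest on isoflavone 6 h. In that setting 30 were lowest at 48 h of BR-DIM and 21 at 72 h of isoflavone. Of the 1101, 203 were then highest and 146 lowest on isoflavone 6 h.

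Few members left a range of 1.5-fold around the control. On BR-DIM 6 h, 0 of 75 members measured were at least 1.5-fold higher (12.4% of all genes) and 0 at least 1.5-fold lower (5.15% of all genes). On BR-DIM 48 h, 2 of 75 were higher (16.8% of all genes) and 11 lower (12.6% of all genes), and 1 was at least 2-fold lower (3.87% of all genes). On isoflavone 6 h, 0 of 76 were higher (7.15% of all genes) and 1 lower (11.5% of all genes). On isoflavone 72 h, 2 of 75 were higher (15.0% of all genes) and 8 lower (9.73% of all genes), with 1 at least 2-fold lower (2.06% of all genes). The share that was lower on the late arrays was thus near that of all genes, most of which are dimmer. The share that was higher was below that of all genes on each of the 4 arrays. Among the 1101 bright genes, the late BR-DIM array had 94 at least 1.5-fold below the control, and the late isoflavone array 99. The members' share that was lower was thus above that of the bright genes for BR-DIM and near it for isoflavone. In the same order, 116 and 77 of the 1101 were at least 1.5-fold above the control. For the 6 h arrays these counts were 44 and 38. Each is a larger share than among the members. Of the 70 well-measured genes, 53 stayed within 1.5-fold of the control on all 4 treated arrays, and their highest array was at the median 1.44 times their lowest, as it was for the 1101 bright genes.

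**Figure D1:**
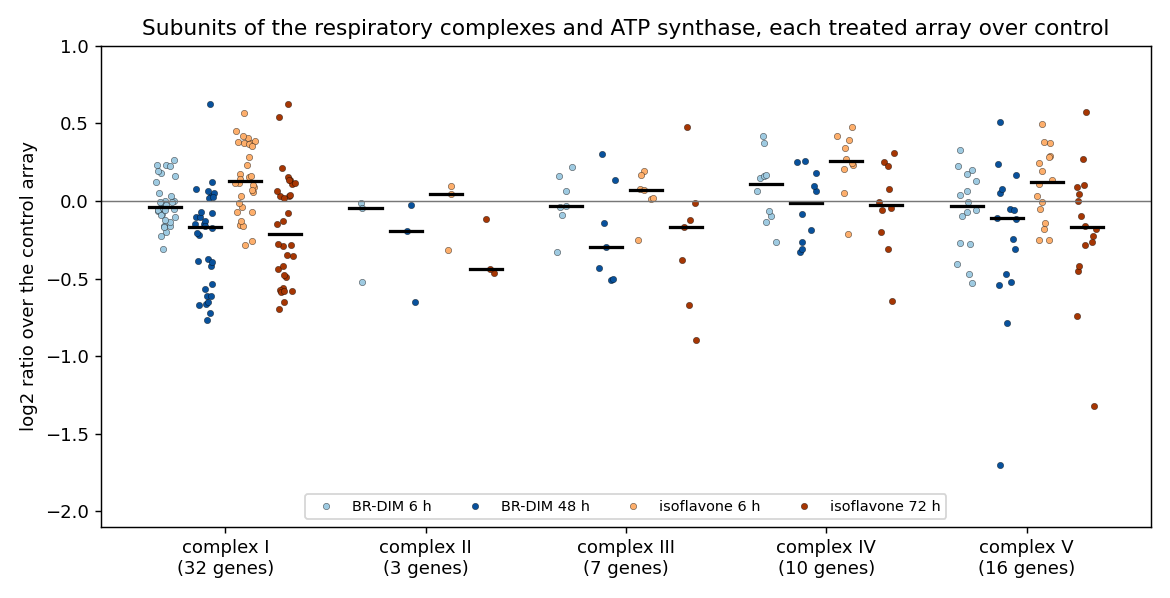
Log2 ratio of the MAS5 signal of each treated array over the control array, for the 68 well-measured subunits by complex, with 1 point per gene and black bars for medians over genes. The points of BR-DIM 48 h and isoflavone 72 h reach lower than those of the 6 h arrays, and the lowest of all is ATP5MC1 of complex V at -1.70.

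The medians of the complexes lay further apart on the late arrays than on the 6 h arrays. For isoflavone this rested on complex II, with its 3 genes, alone. The 32 genes of complex I had a median log2 ratio over the control of -0.04 at 6 h and -0.17 at 48 h of BR-DIM, 0.13 at 6 h and -0.21 at 72 h of isoflavone. The 3 genes of complex II had -0.05 at 6 h and -0.19 at 48 h of BR-DIM, 0.05 at 6 h and -0.44 at 72 h of isoflavone. The 7 genes of complex III had -0.03 at 6 h and -0.29 at 48 h of BR-DIM, 0.07 at 6 h and -0.17 at 72 h of isoflavone. All of these were lower on the late array of a compound than on its 6 h array. The value of complex II on isoflavone 72 h was -0.13 with all probe sets of a gene averaged. Without probe sets ending in _s_at or _x_at it was -0.09. The 10 well-measured genes of complex IV had 0.11 at 6 h and -0.01 at 48 h of BR-DIM, 0.26 at 6 h and -0.03 at 72 h of isoflavone. Over all genes of complex IV measured on BR-DIM 48 h the median was -0.08, and with all probe sets of a gene averaged it was -0.31. The 17 genes of complex V had -0.06 at 6 h and -0.12 at 48 h of BR-DIM, 0.11 at 6 h and -0.18 at 72 h of isoflavone, and with arrays normalized by quantiles the value on isoflavone 6 h was -0.02.

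Among the well-measured genes, complex V held the one that moved most, ATP5MC1 (probe set 208972_s_at, formerly ATP5G1), and it is 1 of 3 genes for the c ring. ATP5MC1, ATP5MC2 and ATP5MC3 encode the same mature c subunit behind different mitochondrial import sequences. The signal of ATP5MC1 was 5255 at 6 h and 2328 at 48 h of BR-DIM, 7529 at 6 h and 3035 at 72 h of isoflavone, against 7574 on the control. It was 3.25-fold lower than the control on BR-DIM 48 h and 2.50-fold lower on isoflavone 72 h, and its log2 ratio was -0.53 at 6 h of BR-DIM and -0.01 at 6 h of isoflavone. It was thus low on both late arrays, in between on BR-DIM 6 h, and level with the control on isoflavone 6 h. Among all genes measured it was the 81st lowest of 12921 on BR-DIM 48 h and the 64th lowest of 12604 on isoflavone 72 h. It has a single probe set in the gene table used, so no other probe set bears on it.

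Of the other genes of the c ring, ATP5MC3 was low together with it on both late arrays and ATP5MC2 was not. ATP5MC2 had signals of 18343 at 6 h and 23127 at 48 h of BR-DIM, 22919 at 6 h and 19551 at 72 h of isoflavone, against 16234 on the control. Its log2 ratio over the control was between 0.18 on BR-DIM 6 h and 0.51 on BR-DIM 48 h, so it was above the control on all 4 treated arrays. ATP5MC3 had signals of 12692 at 6 h and 10227 at 48 h of BR-DIM, 14800.1 at 6 h and 10524 at 72 h of isoflavone, against 17608 on the control. It was below the control on all 4, with log2 ratios of -0.47 at 6 h and -0.78 at 48 h of BR-DIM, -0.25 at 6 h and -0.74 at 72 h of isoflavone, and a further probe set of similar brightness (207508_at) gave -0.41 at 6 h and -0.66 at 48 h of BR-DIM, -0.16 at 6 h and -0.74 at 72 h of isoflavone. Of the summed signal of the 3 genes, ATP5MC1 made up 14.5% at 6 h and 6.52% at 48 h of BR-DIM, 16.6% at 6 h and 9.17% at 72 h of isoflavone, against 18.3% on the control. ATP5MC2 made up 50.5% at 6 h and 64.8% at 48 h of BR-DIM, 50.7% at 6 h and 59.1% at 72 h of isoflavone, against 39.2% on the control. Signals of different probe sets are not on one scale of molecules, so only the movement of these shares between arrays can be read, and the share of ATP5MC2 was higher on each treated array than on the control. The summed signal of the 3 was 36290.1 at 6 h and 35681 at 48 h of BR-DIM, 45248 at 6 h and 33110 at 72 h of isoflavone, against 41415 on the control.

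**Figure D2:**
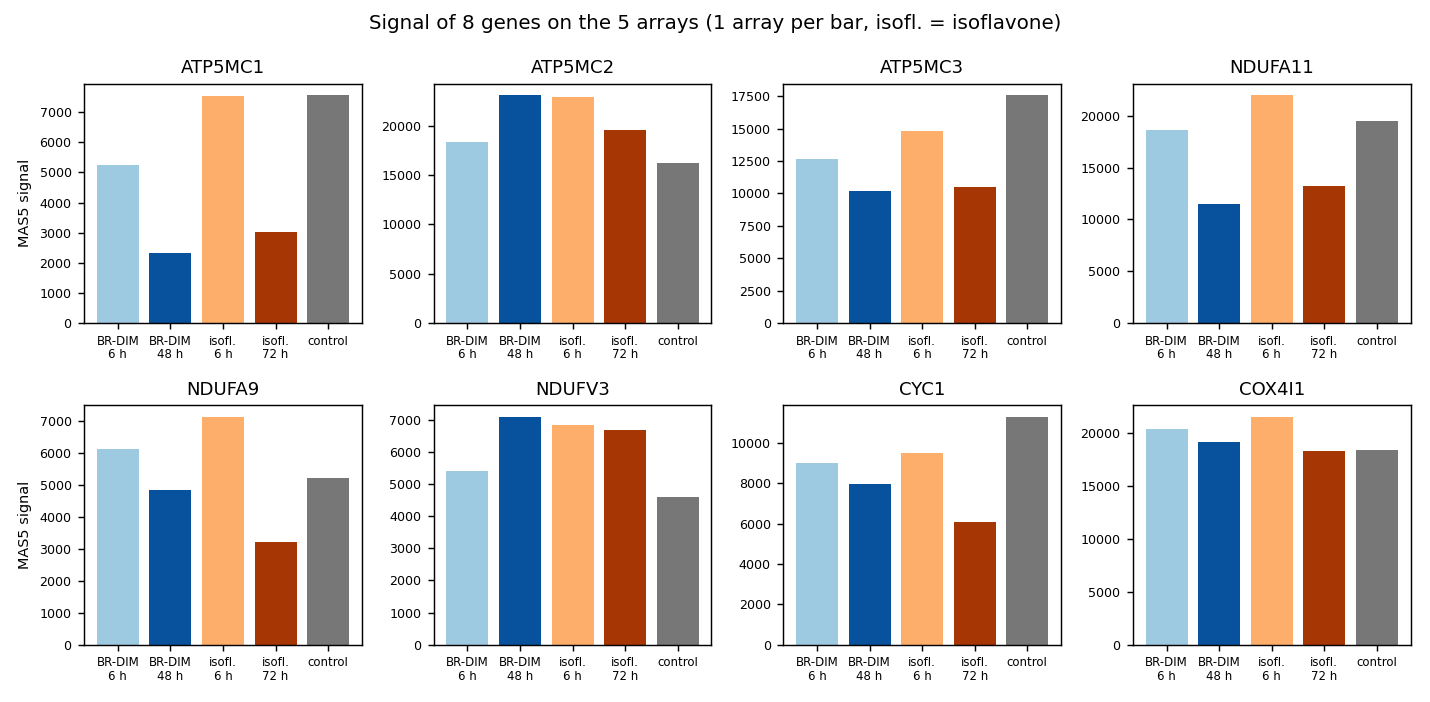
MAS5 signal of 8 genes on the 5 arrays, 1 array per bar, with an axis of its own for each gene starting at 0. ATP5MC1 and NDUFA11 are lowest on both late arrays, NDUFA9 and CYC1 on isoflavone 72 h, and ATP5MC2 and NDUFV3 are lowest on the control.

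The rest of the ATP synthase moved less. The 5 genes of the F1 head, which holds the catalytic sites, had a median log2 ratio of 0.13 at 6 h and 0.05 at 48 h of BR-DIM, 0.11 at 6 h and -0.10 at 72 h of isoflavone. ATP5F1D, the delta subunit of its central stalk, had signals of 3199 at 6 h and 2016 at 48 h of BR-DIM, 2459.7 at 6 h and 2402 at 72 h of isoflavone, against 2929 on the control. ATP5F1E, the epsilon subunit beside it, had 14230.3 at 6 h and 16048 at 48 h of BR-DIM, 15593 at 6 h and 20285 at 72 h of isoflavone, against 13631 on the control. The delta gene was thus lowest and the epsilon gene above the control on BR-DIM 48 h, with log2 ratios of -0.54 for ATP5F1D and 0.24 for ATP5F1E. A dimmer probe set of ATP5F1D (203926_x_at) gave -0.54 on BR-DIM 6 h, where the one used gave 0.13, so the 2 disagree there. The 4 genes of the peripheral stalk, which holds the head still, lay between -0.31 and 0.38 on all 4 arrays, and their brightest, ATP5PO, was highest on isoflavone 6 h. It had 27251 at 6 h and 26528 at 48 h of BR-DIM, 37254 at 6 h and 25622 at 72 h of isoflavone, against 28601 on the control.

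Among the small membrane subunits, ATP5ME, the e subunit that helps the synthase form dimers, had signals of 10678 at 6 h and 10182 at 48 h of BR-DIM, 15523 at 6 h and 12056 at 72 h of isoflavone, against 14129 on the control. Its log2 ratio over the control was -0.40 at 6 h and -0.47 at 48 h of BR-DIM, 0.14 at 6 h and -0.23 at 72 h of isoflavone. ATP5MG, the g subunit beside it, had 24099.7 at 6 h and 21499 at 48 h of BR-DIM, 23419 at 6 h and 19128 at 72 h of isoflavone, against 19169 on the control. It was level with the control on isoflavone 72 h and above it on the other arrays. ATP5MF, the f subunit, was represented only by a dim probe set with signals between 70.8 and 135.9, which says little of the gene. ATP5IF1, which inhibits the synthase when it runs backwards, had 4909 at 6 h and 4741 at 48 h of BR-DIM, 5704 at 6 h and 6044 at 72 h of isoflavone, against 5868 on the control. Its log2 ratios ran between -0.31 and 0.04, and a dimmer probe set (223339_at) had -0.91 on BR-DIM 48 h.

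In complex I, the conserved core subunits, which bind NADH and carry electrons, were lower on each late array than on the 6 h array of the same compound. All 5 core genes measured, NDUFV1, NDUFV2, NDUFS1, NDUFS3 and NDUFS7, were lower in both of these comparisons, with a median log2 ratio of -0.26 for BR-DIM 48 h over 6 h and -0.40 for isoflavone 72 h over 6 h. NDUFS1, the largest of them and a carrier of iron-sulphur clusters, had signals of 2507 at 6 h and 2279.5 at 48 h of BR-DIM, 1867 at 6 h and 1646 at 72 h of isoflavone, against 2092 on the control. It was above the control after BR-DIM and below it after isoflavone, by log2 ratios of 0.26 at 6 h and 0.12 at 48 h of BR-DIM, -0.16 at 6 h and -0.35 at 72 h of isoflavone. A dimmer probe set of NDUFS1 (229647_at) had -0.35 at 48 h of BR-DIM and 0.33 at 6 h of isoflavone, so this order is not shared by both. All 11 genes of the NDUFB series, accessory subunits of the membrane arm, were also lower in both comparisons, with a median of -0.32 in each. Some lay near 0, such as NDUFB5 at -0.04 for BR-DIM and -0.02 for isoflavone. Of their other bright probe sets, 201227_s_at of NDUFB8 was lower in both. However, 218201_at of NDUFB2 had 0.17 for isoflavone, and 228301_x_at of NDUFB10 had 0.04 for BR-DIM. The other subunits of complex I did not all go this way. NDUFA5 (0.39 for BR-DIM, 0.91 for isoflavone) and NDUFA6 (0.27 for BR-DIM, 0.05 for isoflavone) were higher in both comparisons. NDUFA1, NDUFA10, NDUFA12, NDUFS4 and NDUFV3 differed in sign between them, and the rest were lower in both. Among the 1101 other bright genes, 388 (35.2%) were lower in both comparisons.

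Complex I, which has 32 of the 70 well-measured genes, held 7 of the 10 at least 1.5-fold lower than the control on BR-DIM 48 h. It held 3 of the 8 on isoflavone 72 h, which is below its share of the well-measured genes. On BR-DIM 48 h these included the core gene NDUFV2 and the accessory genes NDUFA8, NDUFB6 and NDUFB7, with log2 ratios between -0.67 and -0.61, and on isoflavone 72 h NDUFB3 at -0.59. NDUFA11, a subunit of the membrane arm, had signals of 18658 at 6 h and 11456 at 48 h of BR-DIM, 22016 at 6 h and 13208 at 72 h of isoflavone, against 19483 on the control. It was 1.70-fold lower than the control on BR-DIM 48 h and 1.47-fold lower on isoflavone 72 h, and a further probe set (228690_s_at) had log2 ratios of -0.67 at 48 h of BR-DIM and -0.43 at 72 h of isoflavone. NDUFB2, at the far end of the membrane arm, had 13458 at 6 h and 9153 at 48 h of BR-DIM, 16197 at 6 h and 15788 at 72 h of isoflavone, against 15097 on the control, and was 1.65-fold lower on BR-DIM 48 h alone. Its second probe set (218201_at) gave a log2 ratio of -0.90 there and also -0.65 on BR-DIM 6 h, where the one used gave -0.17. NDUFA2, an accessory subunit near the NADH site, had 11729 at 6 h and 8259 at 48 h of BR-DIM, 17129 at 6 h and 8339 at 72 h of isoflavone, against 13111 on the control. It was 1.59-fold lower than the control on BR-DIM 48 h and 1.57-fold lower on isoflavone 72 h, and highest on isoflavone 6 h. A far dimmer probe set (209223_at, mean signal 170.5) lay above the control in both, with log2 ratios of 0.59 at 48 h of BR-DIM and 0.20 at 72 h of isoflavone.

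NDUFA9 was past 1.5-fold lower on isoflavone 72 h alone, and NDUFA5 and NDUFV3 went the other way. NDUFA9, which sits near the quinone site, had signals of 6117 at 6 h and 4838 at 48 h of BR-DIM, 7135 at 6 h and 3214 at 72 h of isoflavone, against 5208 on the control. It was 1.62-fold lower than the control on isoflavone 72 h. NDUFA5, of the arm that faces the matrix, had 2100.2 at 6 h and 2746 at 48 h of BR-DIM, 2140.3 at 6 h and 4011 at 72 h of isoflavone, against 2605 on the control, and was 1.54-fold higher on isoflavone 72 h. NDUFV3, a small subunit of the NADH-binding module, had 5392 at 6 h and 7092 at 48 h of BR-DIM, 6822 at 6 h and 6681 at 72 h of isoflavone, against 4596 on the control. It was above the control on all 4 arrays, by log2 ratios of 0.23 at 6 h and 0.63 at 48 h of BR-DIM, 0.57 at 6 h and 0.54 at 72 h of isoflavone. Its second probe set (226209_at, mean signal 459.6) had -0.65 on BR-DIM 6 h and 0.00 on BR-DIM 48 h, so the higher level was not seen in both. NDUFA1, a small subunit needed for assembly, and NDUFA13, the brightest gene of the complex, stayed within 1.5-fold of the control on all 4 arrays. NDUFA13 had 21730.3 at 6 h and 17877 at 48 h of BR-DIM, 24839 at 6 h and 21347 at 72 h of isoflavone, against 19179.9 on the control.

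Complex II, succinate dehydrogenase, is also an enzyme of the citric acid cycle, and 3 of its genes were measured. SDHA, the flavoprotein that oxidises succinate, had signals of 5293 at 6 h and 4668 at 48 h of BR-DIM, 5517 at 6 h and 3870.4 at 72 h of isoflavone, against 5337 on the control. SDHC, a membrane anchor, had 5544 at 6 h and 3641 at 48 h of BR-DIM, 6139.8 at 6 h and 4225 at 72 h of isoflavone, against 5731 on the control, and was 1.57-fold lower than the control on BR-DIM 48 h. SDHD, the anchor beside it, had 3037 at 6 h and 4286 at 48 h of BR-DIM, 3507 at 6 h and 4020.1 at 72 h of isoflavone, against 4358 on the control. SDHA and SDHC were thus low on both late arrays, while SDHD was lowest on BR-DIM 6 h and near the control on both late arrays. SDHC has 7 probe sets, and 3 others with a mean signal of at least 3361 gave log2 ratios on BR-DIM 48 h of -0.56 (202004_x_at), -0.10 (215088_s_at) and -0.90 (216591_s_at). The spread among probe sets of this gene was thus as wide as the differences between arrays.

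In complex III, CYC1, the cytochrome c1 that hands electrons to cytochrome c, was below the control on all 4 treated arrays. Its signal was 9009.7 at 6 h and 7947 at 48 h of BR-DIM, 9503 at 6 h and 6082 at 72 h of isoflavone, against 11302 on the control. It was 1.86-fold lower than the control on isoflavone 72 h, and had log2 ratios of -0.33 on BR-DIM 6 h, -0.51 at 48 h of BR-DIM and -0.25 at 6 h of isoflavone. UQCR10, a small subunit beside cytochrome c1, had 20159 at 6 h and 16821 at 48 h of BR-DIM, 20847 at 6 h and 12979 at 72 h of isoflavone, against 20626 on the control, and was 1.59-fold lower on isoflavone 72 h. A far dimmer probe set (228142_at, mean signal 511.4) gave 0.19 there on the log2 scale. UQCRQ, a small subunit that binds quinone, had 21189 at 6 h and 15881 at 48 h of BR-DIM, 23736 at 6 h and 22319.7 at 72 h of isoflavone, against 22554 on the control. It was low on BR-DIM 48 h instead, with a log2 ratio of -0.51. UQCRC2, a core protein of the matrix side, was the gene of the complex that was highest on BR-DIM 48 h, with 14162 at 6 h and 15004 at 48 h of BR-DIM, 12334 at 6 h and 10819 at 72 h of isoflavone, against 12179.7 on the control.

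UQCRB, a ubiquinone-binding subunit, was highest on isoflavone 72 h. Its signal was 17603 at 6 h and 17232 at 48 h of BR-DIM, 17999 at 6 h and 21838 at 72 h of isoflavone, against 15709.7 on the control, and its log2 ratio over the control on isoflavone 72 h was 0.48. Its second bright probe set (209066_x_at) had 7741 at 6 h and 10819 at 48 h of BR-DIM, 8552 at 6 h and 19082 at 72 h of isoflavone, against 8133 on the control. Both probe sets were highest on the same array, by different amounts.

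Of the 10 well-measured genes of complex IV, 1 left the range of 1.5-fold around the control by the probe set that stood for it. COX4I1, a subunit through which ATP regulates the enzyme, had signals of 20351 at 6 h and 19151 at 48 h of BR-DIM, 21501 at 6 h and 18303 at 72 h of isoflavone, against 18346 on the control. COX6A1, the brightest gene of all members, had 41894 at 6 h and 37475 at 48 h of BR-DIM, 41116 at 6 h and 37279.8 at 72 h of isoflavone, against 31350.2 on the control, and its log2 ratios over the control ran between 0.25 on isoflavone 72 h and 0.42 on BR-DIM 6 h. COX6C had 27487 at 6 h and 22668 at 48 h of BR-DIM, 29501 at 6 h and 22394 at 72 h of isoflavone, against 21208 on the control, with its highest log2 ratio, 0.48, on isoflavone 6 h. COX6A1 was above the control on all 4 arrays, and so were COX6C, COX7A2 and COX7C. COX6B1, which binds on the side of cytochrome c, was the gene past 1.5-fold, with 16140.2 at 6 h and 13387 at 48 h of BR-DIM, 17468 at 6 h and 10786 at 72 h of isoflavone, against 16845 on the control. It was 1.56-fold lower than the control on isoflavone 72 h.

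Several subunits of complex IV have forms of certain tissues, and these were at or near the floor. COX4I2, the form of lung, had signals of 166.3 at 6 h and 199.3 at 48 h of BR-DIM, 16.8 at 6 h and 156.9 at 72 h of isoflavone, against 127.6 on the control. COX6A2, of heart and skeletal muscle, had 147.4 at 6 h and 45 at 48 h of BR-DIM, 91.7 at 6 h and 14.9 at 72 h of isoflavone, against 139.8 on the control. COX6B2, of testis, lay between 22.5 and 115.8, COX7A1, of muscle, between 5.3 and 24.2, and COX8C, of testis, between 3.2 and 39.2. Their common forms were far above the floor on all arrays: COX7A2 had 20156 at 6 h and 21448 at 48 h of BR-DIM, 24082 at 6 h and 22325 at 72 h of isoflavone, against 18013 on the control, COX7B had 25150.2 at 6 h and 21099.5 at 48 h of BR-DIM, 28308 at 6 h and 21655 at 72 h of isoflavone, against 22375 on the control, and COX8A had 14498 at 6 h and 12838 at 48 h of BR-DIM, 19190.1 at 6 h and 15234 at 72 h of isoflavone, against 15896 on the control. A far dimmer probe set of COX7B (239252_at, mean signal 451.6) moved more against the control. Its log2 ratios were -0.51 at 6 h and -1.20 at 48 h of BR-DIM, 0.55 at 6 h and 0.61 at 72 h of isoflavone. COX7B2, a form of testis, was the 1 tissue form that left the floor by much. It had 147.8 at 6 h and 3.6 at 48 h of BR-DIM, 93 at 6 h and 363.8 at 72 h of isoflavone, against 182.7 on the control, so it was 1.99-fold higher than the control on isoflavone 72 h. COX7A2L, which helps complexes III and IV bind each other, had 5084 at 6 h and 6202 at 48 h of BR-DIM, 5680.5 at 6 h and 5585 at 72 h of isoflavone, against 4717 on the control, and was above the control on all 4 arrays by log2 ratios of 0.11 to 0.39.

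The late array of each compound was then set over its own 6 h array, which leaves the control out, so that the comparison for BR-DIM and the one for isoflavone share no array. The median log2 ratio of the members was -0.16 for BR-DIM 48 h over 6 h and -0.25 for isoflavone 72 h over 6 h. Over all genes it was -0.01 for BR-DIM and 0.04 for isoflavone, and over the 1101 bright genes 0.04 for BR-DIM and -0.12 for isoflavone. For BR-DIM, 0 of 75 members were at least 1.5-fold higher at 48 h (8.68% of all genes) and 8 lower (11.9% of all genes), with 1 at least 2-fold lower (3.74% of all genes). For isoflavone, 3 of 75 were at least 1.5-fold higher at 72 h (18.8% of all genes) and 13 lower (10.3% of all genes). There 1 was at least 2-fold higher (7.77% of all genes) and 3 at least 2-fold lower (1.89% of all genes).

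Of the 70 well-measured genes, 50 (71.4%) were lower on both late arrays than on the 6 h array of the same compound, and 5 were higher on both. Among the 1101 other bright genes, 388 (35.2%) were lower on both. Restricted to the 62 members with the same brightness as those, it was 46 (74.2%). Genes of one complex are not independent of each other, and this is a count of genes on 4 arrays. By the probe sets used, the lower direction was thus shared by most members, though only ATP5MC1 and NDUFA11 were at least 1.5-fold lower in both. These genes had 37 other probe sets with a mean signal of at least 4 times the floor. Of these 37, 27 had the sign of the probe set used for BR-DIM 48 h over 6 h. For isoflavone 72 h over 6 h it was 26. Their log2 ratios differed from those used by a median of -0.03 for BR-DIM and 0.09 for isoflavone. The counts thus depend in part on the probe set chosen.

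ATP5MC1 was 2.26-fold lower at 48 h than at 6 h of BR-DIM, and 2.48-fold lower at 72 h than at 6 h of isoflavone. NDUFA11 was 1.63-fold lower in the BR-DIM pair and 1.67-fold lower in the isoflavone pair. The others past 2-fold were of isoflavone alone, where NDUFA9 was 2.22-fold lower and NDUFA2 2.05-fold lower at 72 h. NDUFA5 was 1.87-fold higher at 72 h of isoflavone, and COX7B2, under the floor on isoflavone 6 h, at least 3.75-fold higher. Over the 70 genes the log2 ratios of the 2 compounds had a Pearson correlation of 0.53 and a Spearman correlation of 0.45, and without ATP5MC1 a Pearson correlation of 0.45. Over the 1101 other bright genes the Pearson correlation was 0.38. These are across genes, which are not independent replicates, and all arrays come from one cell line.

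**Figure D3:**
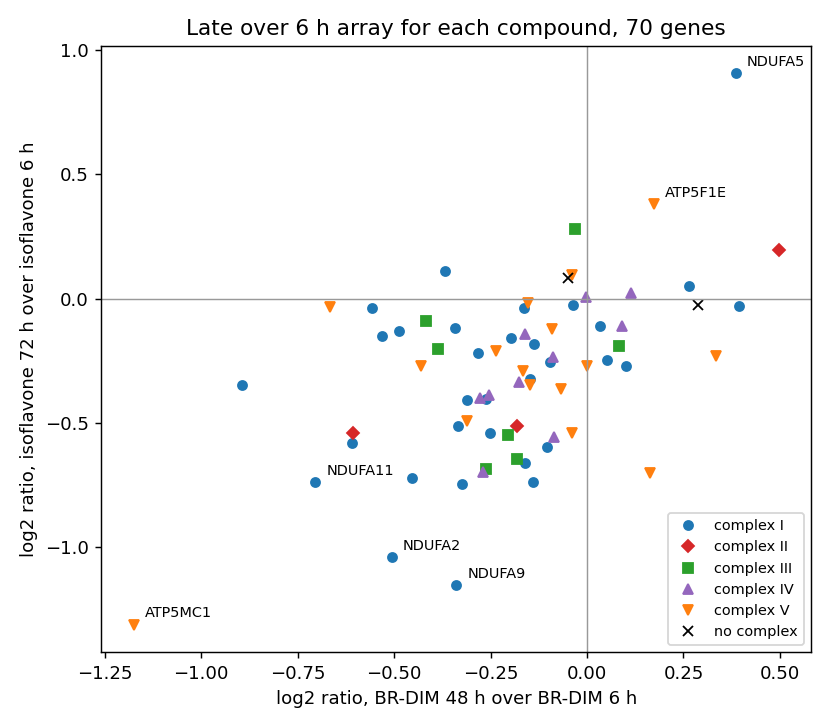
Log2 ratio of the late over the 6 h array for BR-DIM (48 h, horizontal axis) and for isoflavone (72 h, vertical axis), 1 point per well-measured gene, by complex. Of the 70 points, 50 lie below 0 on both axes, with ATP5MC1 at -1.17 for BR-DIM and -1.31 for isoflavone.

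Each of these comparisons sets an array with low luminal markers against one whose summed level of them was near that of the control, in opposite directions. The late arrays were therefore also set over the 6 h array of the other compound with a like level of these markers, a comparison added after the data were seen, in which compound and time both differ. The median log2 ratio of the members was -0.31 for BR-DIM 48 h over isoflavone 6 h, both low in luminal markers, and -0.16 for isoflavone 72 h over BR-DIM 6 h. In the same order, the median was 0.05 and -0.04 over all genes, and -0.05 and -0.02 over the 1101 bright genes. Of the 70 well-measured genes, 60 were below 0 for BR-DIM 48 h over isoflavone 6 h and 44 for isoflavone 72 h over BR-DIM 6 h. The share of other genes below 0 was not counted for these pairs. ATP5MC1 had -1.69 for BR-DIM 48 h over isoflavone 6 h and -0.79 for isoflavone 72 h over BR-DIM 6 h. These pairs recombine the 4 arrays of the comparisons within a compound, so for each gene both sets of log2 ratios have the same sum, and the pairs are no separate support for a lower level. The part of the luminal marker difference in the late over 6 h ratios was not tested.

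BR-DIM and isoflavone can be compared at the same dose and time only at 6 h. The median log2 ratio of the members for BR-DIM 6 h over isoflavone 6 h was -0.14, against 0.06 for all genes and -0.09 for the 1101 bright genes. Of 76 members measured, 3 were at least 1.5-fold higher after BR-DIM (17.5% of all genes) and 0 lower (6.55% of all genes). The 3 were COX4I2, COX6A2 and COX7B2, all near the floor. Among well-measured genes the log2 ratios ran between -0.56, for ATP5MJ, a small subunit of the ATP synthase, and 0.42, for NDUFS1. With arrays normalized by quantiles the median was -0.02, so the members' lower level on BR-DIM 6 h than on isoflavone 6 h depended on the scaling. With 1 array each, no interval can be given for any of these differences.

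Other genes of mitochondrial function were set beside the members, from lists chosen with results of these data known. The 48 assembly factors, which build the complexes, had a median log2 ratio over the control of -0.11 at 6 h and -0.13 at 48 h of BR-DIM, -0.05 at 6 h and -0.19 at 72 h of isoflavone. The 16 genes of the citric acid cycle and pyruvate dehydrogenase had -0.08 at 6 h and -0.23 at 48 h of BR-DIM, -0.05 at 6 h and -0.30 at 72 h of isoflavone. The 72 mitochondrial ribosomal proteins, which translate the subunits encoded in mitochondrial DNA, had -0.13 at 6 h and -0.30 at 48 h of BR-DIM, 0.01 at 6 h and -0.39 at 72 h of isoflavone. All 3 of these lists had lower medians on the late array than on the 6 h array of each compound, as the members had. Not every mitochondrial list did so by its summed signal. For isoflavone, the sum of electron carriers and coenzyme Q synthesis genes was 56246 at 6 h and 56595 at 72 h. For BR-DIM, that of ADP/ATP and phosphate carriers and porins was 92359 at 6 h and 93312 at 48 h. Each of these sums was lower on the late array of the other compound. Of the 72 mitochondrial ribosomal genes, 18 were at least 1.5-fold lower than the control at 48 h of BR-DIM (12.6% of all genes) and 20 at 72 h of isoflavone (9.73% of all genes). At least 1.5-fold higher were 0 at 48 h of BR-DIM (16.8% of all genes) and 1 at 72 h of isoflavone (15.0% of all genes).

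Lower medians on the late arrays than on the 6 h arrays were also found outside mitochondria. The 34 proteasome subunits, of which 31 or 32 were measured, had a median log2 ratio over the control of -0.11 at 6 h and -0.44 at 48 h of BR-DIM, -0.06 at 6 h and -0.29 at 72 h of isoflavone. The 59 cytosolic ribosomal proteins measured had 0.42 at 6 h and 0.53 at 48 h of BR-DIM, 0.42 at 6 h and 0.35 at 72 h of isoflavone, and so lay above the control on all 4 arrays. The 10 housekeeping genes had 0.13 at 6 h and 0.19 at 48 h of BR-DIM, 0.13 at 6 h and 0.03 at 72 h of isoflavone. The lower level on late arrays was thus neither shared by all bright lists nor particular to the respiratory genes.

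**Figure D4:**
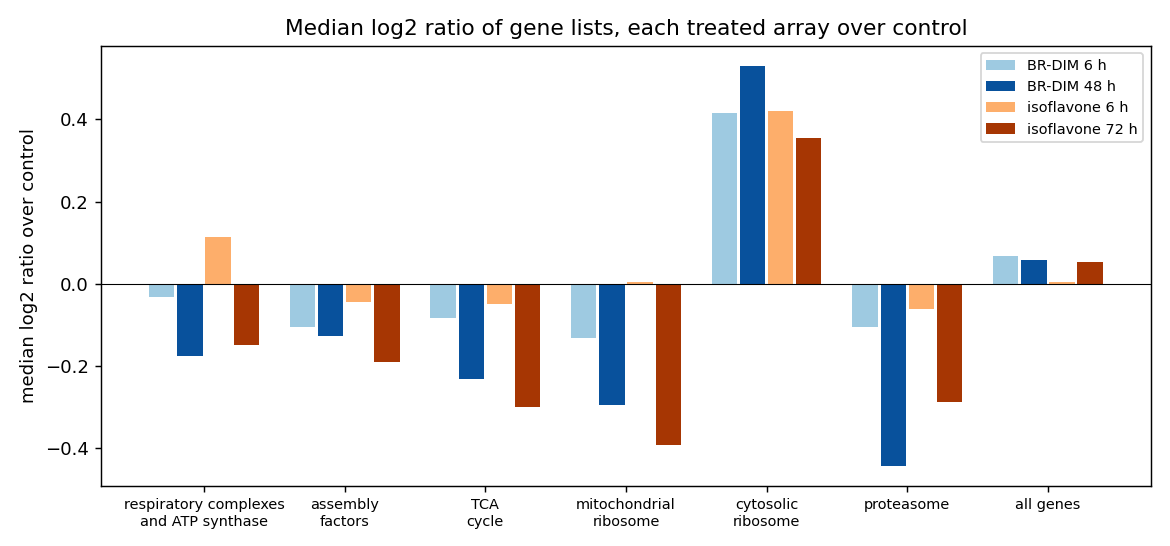
Median log2 ratio over the control array of the 79 members and of 5 other gene lists and all genes, with bars, left to right, for 6 h and 48 h of BR-DIM and for 6 h and 72 h of isoflavone. The members, the citric acid cycle, the mitochondrial ribosome and the proteasome are lower on each late array than on its 6 h array, and the cytosolic ribosome is between 0.35 and 0.53 on all 4.

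Of the 16 regulators of respiratory genes, 1 was at least 1.5-fold higher than the control on BR-DIM 6 h (12.4% of all genes), while 2 were as far below it on the late array of BR-DIM (12.6% of all genes) and 3 on that of isoflavone (9.73% of all genes). With 16 genes, nothing particular to the regulators can be read from these counts. GABPA, which binds the GABPA letters above, had signals of 1482 at 6 h and 1085 at 48 h of BR-DIM, 1187 at 6 h and 575.7 at 72 h of isoflavone, against 1106 on the control. It was the only regulator at least 2-fold lower on isoflavone 72 h than on isoflavone 6 h, with a log2 ratio of -1.04. PPRC1, a coactivator of the PGC-1 family, had 820.2 at 6 h and 628.4 at 48 h of BR-DIM, 941.3 at 6 h and 585.5 at 72 h of isoflavone, against 1039 on the control, and was lowest on both late arrays. NRF1 itself had 494.4 at 6 h and 641.3 at 48 h of BR-DIM, 620.2 at 6 h and 648 at 72 h of isoflavone, against 695.9 on the control. PPARGC1A, the coactivator PGC-1 alpha, was above the floor on BR-DIM 6 h alone, at 129.2. TFB2M, a factor of mitochondrial transcription, had 1672 at 6 h and 1151 at 48 h of BR-DIM, 1468 at 6 h and 1545 at 72 h of isoflavone, against 2026 on the control, and was lowest on BR-DIM 48 h. Among the carriers that exchange ADP and ATP, SLC25A4, the form of heart and muscle, had 2136 at 6 h and 1481 at 48 h of BR-DIM, 3078 at 6 h and 1805 at 72 h of isoflavone, against 2585 on the control, and was low on both late arrays, while the brighter SLC25A5 lay between 25021 and 31799. Cytochrome c itself, CYCS, had 18251 at 6 h and 18705 at 48 h of BR-DIM, 19681 at 6 h and 25311 at 72 h of isoflavone, against 20837 on the control, and was highest on isoflavone 72 h, where CYC1 of complex III was lowest.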

How the data were processed

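RNA of C4-2B cells, as the labels call them, was measured on 5 Affymetrix arrays, with 1 array per condition. The intensity values deposited by the authors are linear signals, 1 per probe set, and their processing notes name MAS5. The trimmed means lay between 498.1 and 498.4, so each array had been scaled. The MAS5 version and its scaling target are not given in the sources used here, nor are detection calls. The number of arrays limits the precision, and nothing says that samples came from separate cultures.

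Of 54613 probe sets, 41091 carried 1 gene symbol in GEO's platform annotation, 1801 several and 11721 were not in it. Only the first were used, and 12 probe sets of several symbols that name a member were left out. The probe set of highest mean signal stood for its gene. All 79 members' symbols were matched to RefSeq by Entrez ID. Probe sets ending in _s_at or _x_at can also bind related transcripts or pseudogenes.

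Signals under the floor of 97.1 were raised to it, so ratios that involve a raised signal are bounds. Changes were counted at 1.5-fold and 2-fold. The 7 comparisons, and the 2 crossed ones added after the data were seen, were made with no test, since each group had 1 array. Values in full were given for complex II, for the 4 highest and lowest members of each comparison with the control, for members past 2-fold, for the 2 widest-ranging and the brightest genes of each complex, for the tissue forms of complex IV and for the c ring. The members, the lists and this rule were chosen with earlier results of these data known.

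As alternatives, arrays were normalized by quantiles or rescaled by their median ratio to the control array, the floor was left out, set at the 75th percentile (471.7) or added to each signal instead, the probe sets of each gene were averaged, and probe sets ending in _s_at or _x_at were left out. The calculation of ratios was checked on simulated arrays, made from the control's signals with 2-fold changes put in. This does not measure the noise between real arrays. Python 3.11.15, numpy 2.4.6 and pandas 2.3.3 were used.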

Additional observations from a re-analysis of the deposited data

Results flagged for a closer look

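The members' median log2 ratio over the control at 6 h was -0.033 for BR-DIM and 0.11 for isoflavone, so the medians had opposite signs. The BR-DIM median was 0.00 after quantile normalization, so its sign depended on the scaling, and the 1101 other bright genes had a median of -0.03 in the same comparison before it. The difference was not tested. COX7B2, a subunit form of testis near the floor, had a log2 ratio over the control of -0.91 on BR-DIM 48 h, a bound set by the floor, and 0.99 on isoflavone 72 h. This difference in direction was not tested either. The probe set 209066_x_at of UQCRB, which did not represent the gene, had a log2 ratio of 1.23 on isoflavone 72 h over the control. Among such probe sets, only rises of at least 2-fold over the control were flagged. Falls of that size occurred too, on BR-DIM 48 h, for 223613_at of UQCR11 at -1.73 and 239252_at of COX7B at -1.20. The cause of these values was not tested.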

How the results depend on the processing

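The members' median log2 ratio kept its sign under all 7 alternatives in 6 of the 7 comparisons, and moved by less than 0.1 in 46 of 49 cases. The exception was BR-DIM 6 h over control, with -0.03 as reported and 0.00 after quantile normalization. For isoflavone 72 h over isoflavone 6 h the median was -0.25 as reported, -0.14 after quantile normalization and -0.13 without probe sets ending in _s_at or _x_at, and for BR-DIM 6 h over isoflavone 6 h it was -0.14 as reported and -0.018 after quantile normalization. The cause was not tested. ATP5MC1 stayed between -1.75 and -1.66 on BR-DIM 48 h and between -1.37 and -1.29 on isoflavone 72 h over the control. Its single probe set ends in _s_at, so the gene drops out when such probe sets are left out. Averaging probe sets could not change it either, so binding of related transcripts was not checked for it.

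Without probe sets ending in _s_at or _x_at, 67 members remained and other probe sets stood for some genes. Then NDUFA2 had 0.59 at 48 h of BR-DIM and 0.20 at 72 h of isoflavone over the control, and SDHC 0.084 for BR-DIM 48 h over the control and 0.021 over BR-DIM 6 h. UQCR10 had 0.19 on isoflavone 72 h over the control and 0.50 over isoflavone 6 h. The median of complex I on isoflavone 6 h was -0.011, and that of complex II 0.030 for BR-DIM 48 h over control, 0.26 over BR-DIM 6 h and 0.048 for isoflavone 72 h over isoflavone 6 h. The median of complex V on isoflavone 6 h was -0.024 after quantile normalization and -0.0085 with all probe sets averaged, and that of complex IV for BR-DIM 6 h over isoflavone 6 h 0.048 after quantile normalization.

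Over the alternatives, counts of members at least 1.5-fold lower than the control ran between 0 and 5 at 6 h and 10 and 13 at 48 h of BR-DIM, and between 0 and 3 at 6 h and 6 and 12 at 72 h of isoflavone. They ran between 6 and 10 for BR-DIM 48 h over 6 h and between 7 and 17 for isoflavone 72 h over 6 h. Those at least 1.5-fold higher than the control ran between 0 and 3 at 6 h and 1 and 4 at 48 h of BR-DIM, and between 0 and 2 at 6 h and 1 and 5 at 72 h of isoflavone. Those at least 2-fold lower ran between 1 and 3 on BR-DIM 48 h and 1 and 2 on isoflavone 72 h over the control, and at least 2-fold higher between 0 and 3 for isoflavone 72 h over 6 h. For all genes at least 2-fold apart, the share that was higher was 44.6% for BR-DIM 48 h over 6 h after quantile normalization, against 32.8% as reported, and 73.5% for BR-DIM 6 h over isoflavone 6 h, against 86.3%. No paired analysis was possible because each group had 1 array.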
